A study of Mus musculus with 32 samples.

Results

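Tox, Tox2, Batf, Batf3, Irf4, Prdm1, Nfatc1 and Bhlhe40 are 8 transcription factor genes that T cell biology groups with exhaustion, the state of restrained function that T cells enter under lasting antigen contact. They are picked out by gene symbol, with no threshold on a value, though earlier results of these data were known when the genes were proposed. All 8 were among the 16741 genes of the RNA table and passed the filter on low values. The table held 31 libraries of bulk RNA from T cells of C57Bl6 donor mice, sorted from spleen and lymph nodes, in a model of graft-versus-host disease in which the donor cells attack a major-mismatched Balb/c host.

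Before transplantation (day 0), 2 libraries were made from each of 3 sorts: regulatory T cells (Treg), CD8 cells, and conventional CD4 cells. Cells taken after transplantation came from syngeneic hosts (3 CD4 and 3 CD8 libraries), from allogeneic hosts that received no added Treg (4 and 4), and from allogeneic hosts given Treg on day 0 (4 CD4, 4 CD8 and 3 Treg libraries). All groups share the C57Bl6 donor background, and no genetic change is named. The strain of the syngeneic hosts, the conditioning, and any pooling of animals are not given in the labels. Titles place the later cells at day 6, and the series design text at day 8, so they are called post-transplant cells here. Titles also carry a prefix, JL019 or JL027, whose meaning the labels do not state. Post-transplant CD4 and CD8 titles share a recipient number, except those of syngeneic JL027, which carry none. Nothing states that replicates are separate animals, so p-values measure only the spread between these libraries.

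These factors act in a connected circuit. Antigen receptor signals raise calcium, which activates calcineurin, and calcineurin moves NFAT proteins such as NFATc1 into the nucleus. NFAT induces IRF4, BATF and TOX. BATF and BATF3 are AP-1 family proteins that pair with JUN proteins and bind DNA together with IRF4 in activated T cells. Prdm1 encodes BLIMP-1, a repressor that drives effector differentiation and represses memory genes such as Tcf7 and Bcl6. TOX and its relative TOX2 are HMG-box proteins that set the chromatin state of exhausted cells, and BHLHE40 is an E-box binding repressor induced by activation.

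In the mouse genome the genes lie apart from each other, and the place of Nfatc1 is not reported here. By RefSeq (GRCm38.p6, the build family that the submitters' processing notes name) they are Tox at chr4:6686353-6991557, Tox2 at chr2:163203058-163324172, Batf at chr12:85686720-85709087, Batf3 at chr1:191098414-191108943, Irf4 at chr13:30749233-30766981, Prdm1 at chr10:44437174-44528558 and Bhlhe40 at chr6:108660629-108666925. RefSeq promoter entries were at hand for Tox2, Batf, Batf3, Irf4 and Prdm1. The 250 bases upstream of a start are shown for Batf, Irf4 and Prdm1, because these genes moved together across the groups described below and their proteins meet at shared DNA sites. They are written 5' to 3' on the strand of the gene, with matches to searched motifs in capitals. The Batf window is chr12:85686470-85686719 on the plus strand, the Irf4 window chr13:30748983-30749232 on the plus strand, and the Prdm1 window chr10:44458749-44458998 on the minus strand, the last belonging to a start that lies inside the span of the gene.
Batf: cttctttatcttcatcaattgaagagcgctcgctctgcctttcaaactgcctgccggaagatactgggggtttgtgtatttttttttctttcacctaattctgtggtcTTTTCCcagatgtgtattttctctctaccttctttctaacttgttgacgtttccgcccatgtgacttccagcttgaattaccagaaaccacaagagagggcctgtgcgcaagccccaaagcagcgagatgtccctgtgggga
Irf4: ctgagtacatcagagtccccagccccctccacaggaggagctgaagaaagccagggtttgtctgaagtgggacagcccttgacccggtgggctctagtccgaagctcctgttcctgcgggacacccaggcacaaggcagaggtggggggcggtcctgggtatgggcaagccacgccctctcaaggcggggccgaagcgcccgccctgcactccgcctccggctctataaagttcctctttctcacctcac
Prdm1: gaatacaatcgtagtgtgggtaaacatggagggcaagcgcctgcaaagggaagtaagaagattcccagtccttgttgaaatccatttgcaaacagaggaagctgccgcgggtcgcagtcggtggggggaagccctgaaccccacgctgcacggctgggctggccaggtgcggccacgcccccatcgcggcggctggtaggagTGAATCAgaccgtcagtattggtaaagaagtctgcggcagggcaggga

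Both strands were searched for an AP-1 site (TGANTCA), an NFAT core (GGAAAA), an IRF repeat (GAAA, any 2 bases, GAAA) and an E-box (CACGTG), of which none contains another. The capitals in Batf are an NFAT core read from the other strand, 142 to 137 bases before the start, and those in Prdm1 an AP-1 site 48 to 42 bases before it. The Irf4 window held none of the 4 motifs. Among the other entries, a Batf3 window held an E-box from 247 to 242 bases before its start, and the windows of 2 adjoining Tox2 starts shared an NFAT core. Of 32851 RefSeq promoters of the same length, 6.75% held the AP-1 site, 20.4% the NFAT core, 2.98% the IRF repeat and 6.02% the E-box. A match describes letters in a window and not a bound site.

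Values are counts that the authors normalised between libraries. The number of reads per library cannot be recovered from them, so depth is unknown, and gene length was not removed, so levels are compared between groups and not between genes. The mean normalised count per gene ran from 1227 to 2385 over the 31 libraries. Cd4, Cd8a and Cd8b1 followed the sorted labels, with 1 exception. The CD4 syngeneic library JL019-2 held a summed myeloid marker level of 3670000, against 81430 and 90480 in the other 2 libraries of its group, a dendritic cell marker sum of 30090 against 883 and 920, and a T cell marker sum of 53890 against 132100 and 151100. Its Cd4 level was the lowest of its group (1659). Tests on these 8 genes that rest on syngeneic CD4 cells are therefore also given without it, while the order of groups and the correlations across them keep it. In Treg libraries of day 0 the summed Treg markers were 58440 to 59930, against 10320 to 11050 in CD4 cells of day 0, but Foxp3, the defining Treg factor, read 198 and 442 against 978 and 1145. In bulk RNA, fewer cells of a type and less RNA per cell cannot be told apart.

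**Figure D1:**
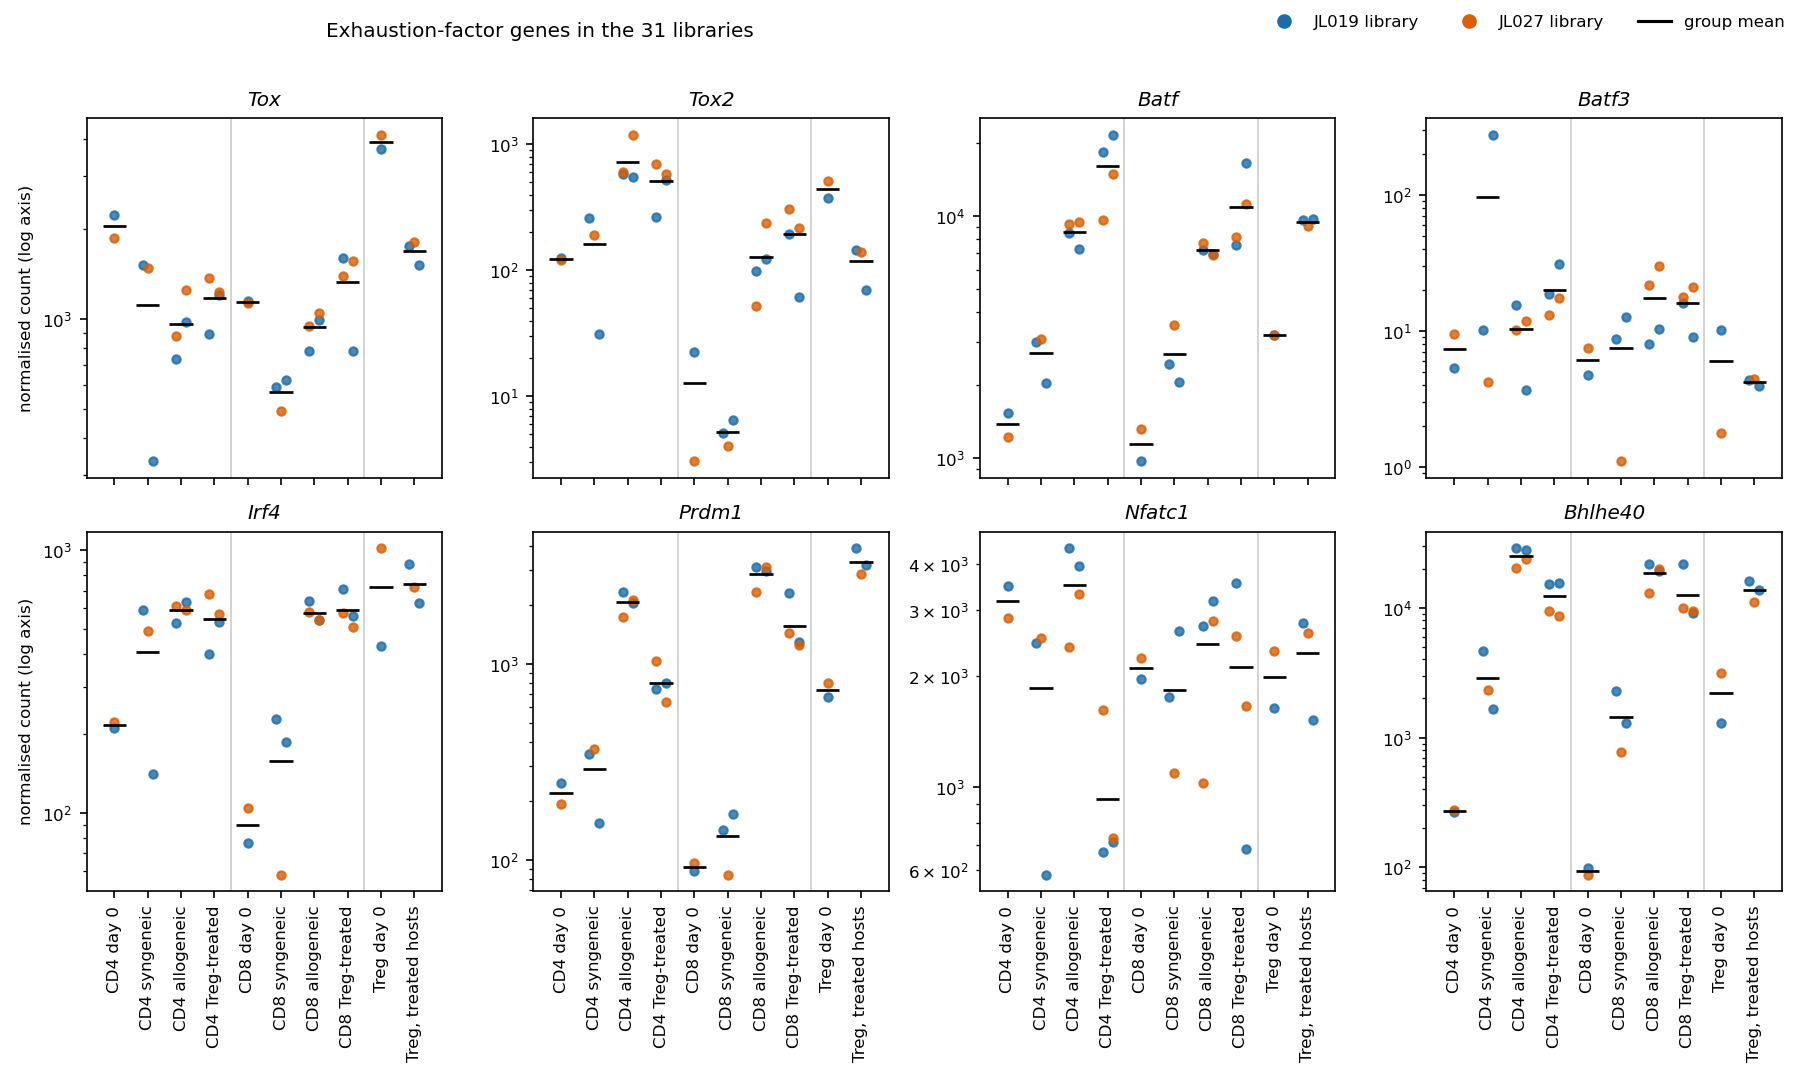
Normalised counts (log axis) of the 8 genes in each library, by group, coloured by label prefix, with a bar at the group mean. Prdm1 reads 84.1 to 368 in syngeneic and 1724 to 3111 in allogeneic libraries, and Nfatc1 is lowest in CD4 Treg-treated cells at a mean of 933.

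The first comparison asks how the factors differ between an allogeneic and a syngeneic transfer. Prdm1, Bhlhe40, Batf and Tox2 were higher in allogeneic than in syngeneic CD4 cells and in CD8 cells, and Irf4 in CD8 cells. Of the 8 genes, 4 were called higher in CD4 cells and 5 in CD8 cells, and none lower (limma on log2 of the normalised count plus 1, Benjamini-Hochberg adjusted p under 0.05 over all genes). Of all genes 14.6% were called between the CD4 groups (6.69% higher and 7.91% lower) and 21.1% between the CD8 groups (10.4% higher and 10.7% lower). The median log2 change of the 8 was 1.42 in CD4 and 1.77 in CD8 cells, against -0.00142 and 0.0174 over all genes.

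Prdm1 read 153, 348 and 368 in the syngeneic CD4 libraries and 1724, 2039, 2123 and 2317 in the allogeneic ones. In CD8 cells it read 84.1, 142 and 171 in syngeneic and 2326, 2972, 3110 and 3111 in allogeneic libraries. No allogeneic library came near a syngeneic one in either cell type. The ratio of group means was 7.08 in CD4 and 21.7 in CD8 cells. The log2 change was 2.91 (SE 0.272, adjusted p 1.43e-08) in CD4 cells and 4.48 (SE 0.272, adjusted p 1.78e-12) in CD8 cells, ranking 45 and 17 by p among the 16741 genes. Without JL019-2 the CD4 change was 2.51 (adjusted p 9.12e-08). The difference of the log2 changes, CD8 minus CD4, was 1.57 (SE 0.384, adjusted p 0.0144), and Prdm1 was the only one of the 8 genes called in that test, which called 4.65% of all genes. It was not called with quantile normalisation (1.08, adjusted p 0.14), with only the groups compared (1.57, adjusted p 0.0663) or with JL019 or JL027 alone. Without CD8 syngeneic library JL027 it was 1.27 (adjusted p 0.0651), and without CD4 syngeneic library JL019-2 it was 1.97 (adjusted p 0.000542).

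Bhlhe40, the E-box repressor, was 1668, 2308 and 4667 in syngeneic CD4 cells and 20180, 23680, 27600 and 28720 in allogeneic ones. The CD8 libraries read 780, 1292 and 2272 against 13070, 19280, 19780 and 21890. The groups stood far apart in both cell types, with log2 changes of 3.24 (SE 0.363, adjusted p 3.09e-07) in CD4 and 3.78 (SE 0.363, adjusted p 7.9e-09) in CD8 cells. Without JL019-2 the CD4 change was 2.92 (adjusted p 5.63e-06).

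Batf, the AP-1 partner of IRF4, gave 2032, 3005 and 3105 in syngeneic CD4 cells and 7307, 8494, 9275 and 9416 in allogeneic ones. Syngeneic CD8 cells read 2061, 2433 and 3525 and allogeneic CD8 cells 6901, 6961, 7249 and 7730. The groups did not overlap in either cell type. The ratio of means was 3.18 and 2.7, and the log2 change 1.69 (SE 0.253, adjusted p 2.52e-05) and 1.47 (SE 0.253, adjusted p 8.23e-05). The difference between them was -0.22, with an interval from -0.95 to 0.52. Without JL019-2 the CD4 change was 1.49 (adjusted p 0.000407) and the difference -0.0225.

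Irf4, the DNA-binding partner of BATF, was called in CD8 cells and not in CD4 cells. Syngeneic CD8 cells held 58.0, 186 and 228 and allogeneic CD8 cells 540, 542, 580 and 641, a log2 change of 2.08 (SE 0.393, adjusted p 0.000257). Syngeneic CD4 cells held 140, 492 and 589, and the allogeneic libraries, at 527, 592, 609 and 633, overlapped them (log2 change 0.77, SE 0.393, adjusted p 0.216). The difference between the cell types was itself not called, at 1.31 (adjusted p 0.214). The low value of 140 belongs to library JL019-2. Without that library the CD4 change was 0.13 (adjusted p 0.914) and the difference between cell types was called, at 1.95 (adjusted p 0.0146).

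Of the 2 HMG-box genes, Tox2 was called and Tox was not. Tox2 was 4.04, 5.1 and 6.49 in syngeneic CD8 cells and 52.1, 98.6, 123 and 240 in allogeneic ones, a log2 change of 4.19 (SE 0.63, adjusted p 1.32e-05). In CD4 cells it was 31.5, 193 and 261 against 549, 579, 598 and 1192, and the allogeneic libraries all lay above (log2 change 2.55, SE 0.63, adjusted p 0.00542). Here the call rested on library JL019-2, since without it the change was 1.62 (adjusted p 0.091). Tox, the founding member of the family, was 494, 591 and 624 in syngeneic CD8 cells and 784, 945, 992 and 1049 in allogeneic ones. These groups did not overlap, but the log2 change of 0.72 (SE 0.338) was not called (adjusted p 0.135), except with only the groups compared (adjusted p 0.0358). In CD4 cells Tox read 335, 1484 and 1515 in syngeneic and 737, 877, 978 and 1254 in allogeneic libraries, with a log2 change of 0.05 (SE 0.338, adjusted p 0.949). Without JL019-2 the CD4 change was -0.67 (adjusted p 0.0804), and the difference between CD8 and CD4 cells was then called, at 1.39 (adjusted p 0.00968).

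The other 2 genes were not called in either cell type. Nfatc1, the calcineurin-activated factor, had group means of 1850 (syngeneic) and 3514 (allogeneic) in CD4 cells and 1828 and 2436 in CD8 cells, with overlapping libraries (log2 changes 1.16 and 0.38, adjusted p 0.131 and 0.645). In CD4 cells it was called with median centring (1.27, adjusted p 0.0498) and with the library mean as a covariate (0.97, adjusted p 0.0277), while without JL019-2, where Nfatc1 read 582 against 2446 and 2521, the change was 0.46 (adjusted p 0.708). Batf3, known best for its need in cross-presenting dendritic cells, ran from 1.1 to 30.8 in 30 of the libraries. It read 275 in the CD4 syngeneic library JL019-2, the library with the raised dendritic cell markers, and its part in that value was not tested. Without that library the CD4 change of Batf3 was 0.43 (adjusted p 0.835), against -1.3 (adjusted p 0.378) with it. The CD8 change of Batf3 was 1.33 (adjusted p 0.307). It was -0.179 with JL019 alone and 3.66 with JL027 alone, which has 1 CD8 syngeneic library.

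**Figure D2:**
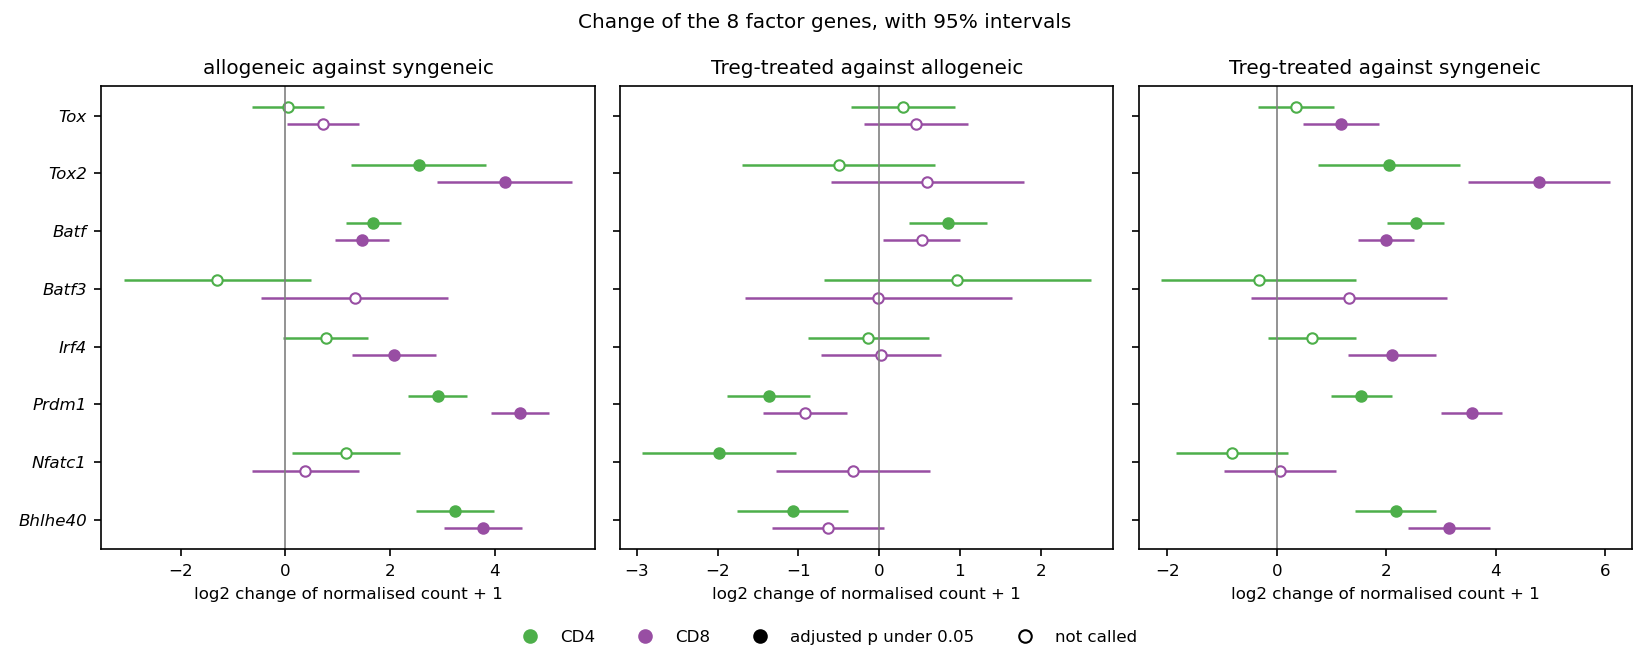
Log2 change of each gene with its 95% interval in CD4 and CD8 cells for 3 comparisons, filled where the adjusted p was under 0.05. Prdm1 and Bhlhe40 lie above 0 against syngeneic cells and below 0 in the middle panel, where the CD8 points are not called.

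Myeloid marker sums moved with this comparison. They were 5864 to 11620 in allogeneic CD4 libraries against 81430 to 3670000 in syngeneic ones, and 6934 to 11180 against 39120 to 62220 in CD8 cells, with all 11 listed markers in the table and none at 0 throughout these groups. Summed Treg markers, 6 genes of which several also come on in other activated T cells, were 33930 to 42940 in allogeneic and 4840 to 11980 in syngeneic CD4 libraries, and 28020 to 35790 and 3636 to 6829 in CD8 ones. Foxp3 itself was 337 to 579 in allogeneic and 44.9 to 905 in syngeneic CD4 cells, and 103 to 453 and 0 to 3.52 in CD8 cells. Summed plasma cell markers, of a cell type that also depends on Prdm1 and Irf4, were 6420 to 6987 in allogeneic and 2581 to 3391 in syngeneic CD8 libraries. In CD4 cells they were 6859 to 7919 against 3484, 4391 and, in JL019-2, 13740. In CD8 cells the summed dendritic cell markers were 1443 to 3008 against 696 to 1064, the B cell markers 1134 to 1256 against 3275 to 4051, and the NK cell markers, which T cells partly express, 1502 to 1887 against 5298 to 5780. In CD4 cells the B cell markers were 929 to 1369 against 254, 260 and, in JL019-2, 1328. The table holds 5 of the 6 listed plasma cell markers, 7 of the 8 for dendritic and 7 of the 8 for B cells, and all 4 NK cell and 7 erythroid ones. The part of these cells in the result was not tested. Without library JL019-2, 3 of the 8 genes (Prdm1, Bhlhe40 and Batf) were called in CD4 cells, where 10.9% of all genes were called.

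The second comparison asks what added Treg changed in the allogeneic hosts. In CD4 cells Prdm1, Nfatc1 and Bhlhe40 fell and Batf rose, 4 of the 8 genes, where 22.2% of all genes were called (10.7% higher and 11.5% lower). In CD8 cells none of the 8 was called, where 0.0657% of all genes were called, and 2 of the 8 had an unadjusted p under 0.05 (Prdm1 0.00113 and Batf 0.0328), as had 11.1% of all genes. The treated and untreated groups of both cell types share no library, but each untreated group also serves in the comparison above.

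Prdm1 fell from 1724 to 2317 in untreated CD4 libraries to 634, 740, 800 and 1031 in treated ones. No library of the treated group reached the untreated range, and the mean was 2.56-fold lower, with a log2 change of -1.37 (SE 0.251, adjusted p 0.00348) that ranked 47 by p. In CD8 cells the treated libraries read 1239, 1297, 1429 and 2285, all below the lowest untreated value of 2326, and the log2 change of -0.92 (SE 0.251) was not called (adjusted p 0.159). The difference between the changes, CD8 minus CD4, was 0.45, with an interval from -0.28 to 1.18, so no difference between the cell types was shown.

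Nfatc1 showed a large drop in treated CD4 cells. Untreated libraries held 2396, 3314, 3936 and 4409 and treated libraries 671, 712, 733 and 1615, a log2 change of -1.98 (SE 0.462, adjusted p 0.0107). Of the treated libraries JL027-1, at 1615, stood apart from the other 3, and the change without it was -2.28. CD8 libraries scattered widely, from 1028 to 3185 untreated and from 682 to 3546 treated (log2 change -0.32, adjusted p 0.789). The difference between cell types was 1.66 (interval 0.32 to 3), with an unadjusted p of 0.0174 and an adjusted p of 0.898. That test called 0.00597% of all genes and 0 of the 8, of which Nfatc1 alone had an unadjusted p under 0.05, as had 2.57% of all genes.

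Bhlhe40 read 20180 to 28720 in untreated and 8663, 9508, 15250 and 15470 in treated CD4 libraries, a log2 change of -1.07 (SE 0.336, adjusted p 0.0263). Batf went the other way, from 7307 to 9416 untreated to 9640, 14980, 18350 and 21690 treated (log2 change 0.85, SE 0.234, adjusted p 0.0167). The treated Batf libraries lay above the untreated ones, JL027-1 only just. Both calls depended on single libraries. Bhlhe40 lost its call without untreated library JL019-1 (-1.0, adjusted p 0.0725) or JL019-2 (-1.02, adjusted p 0.0697), or treated library JL019-1 (-1.19, adjusted p 0.0552), JL019-2 (-1.2, adjusted p 0.0568) or JL027-2 (-0.92, adjusted p 0.0918). Batf lost it without untreated JL019-2 (0.77, adjusted p 0.0546) or treated JL019-1 (0.77, adjusted p 0.0631), JL019-2 (0.69, adjusted p 0.0751) or JL027-2 (0.87, adjusted p 0.0513). Prdm1 and Nfatc1 kept their calls without each of the 8 libraries.

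The mean normalised count per gene moved with this comparison. It was 1504, 1603, 1616 and 1669 in the untreated CD4 libraries and 1608 (JL027-1), 1817, 1964 and 2118 in the treated ones. The treated library with an untreated-like mean was the one with the highest treated Nfatc1 and Prdm1 (1031) and the lowest treated Batf, while its Bhlhe40 was not the highest. With that mean as a covariate Prdm1 (-1.02, adjusted p 0.0122) and Nfatc1 (-1.14, adjusted p 0.0453) were the 2 genes still called, and 3.4% of all genes were called. Bhlhe40 was then -0.84 (adjusted p 0.165) and Batf 0.55 (adjusted p 0.117). The libraries of 1 prefix alone called 0 of the 8 genes, by limma, with 2 libraries in each group. With JL019 and JL027 alone Prdm1 was -1.5 and -1.24, Nfatc1 -2.59 and -1.37, Bhlhe40 -0.87 and -1.27, and Batf 1.34 and 0.36, all in the direction of the pooled values. Summed myeloid markers were 24440 to 89750 in treated CD4 libraries, above the untreated range of 5864 to 11620, and NK cell markers 369 to 409 against 450 to 572. Foxp3 was 127 to 178 in treated and 337 to 579 in untreated CD4 cells, while the Treg marker sums overlapped. Erythroid marker sums were higher in treated libraries within each prefix, at 4093 and 4759 against 450 and 521 (JL019) and 36700 and 44530 against 6193 and 7996 (JL027) in CD4 cells. In CD8 cells they were 1908 and 2521 against 486 and 980 and 12870 and 13570 against 5532 and 10720. In CD8 cells the myeloid sum was 12040 to 32410 against 6934 to 11180, the B cell sum 1309 to 2062 against 1134 to 1256, and the NK cell sum 1180 to 1480 against 1502 to 1887. Their part in the result was not tested.

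**Figure D3:**
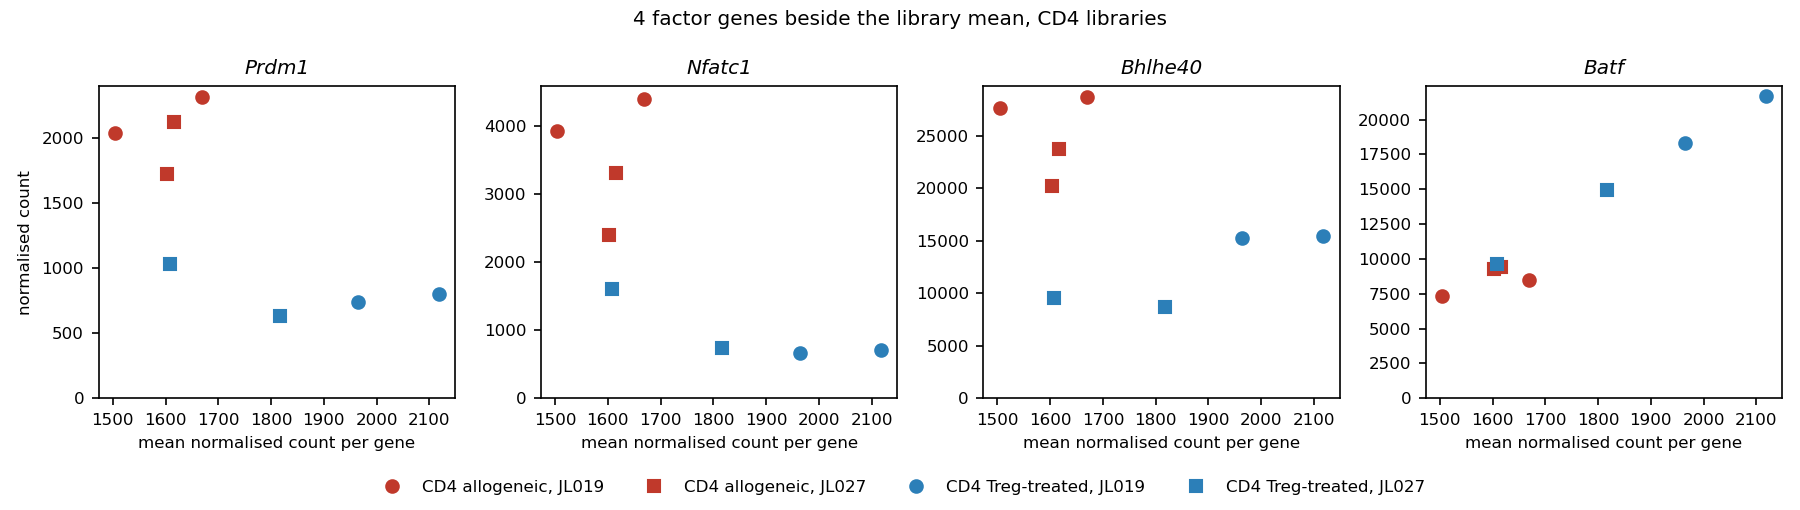
Normalised count of Prdm1, Nfatc1, Bhlhe40 and Batf in the allogeneic (red) and Treg-treated (blue) CD4 libraries, against the mean normalised count per gene of the library, with circles for JL019 and squares for JL027. The treated library JL027-1 lies among the untreated ones on the horizontal axis, at 1608, and has the highest treated Nfatc1 value, 1615.

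The other 4 genes did not pass in treated CD4 cells. Irf4 had group means of 590 untreated and 546 treated, with an interval of the log2 change from -0.88 to 0.61. Tox was 961 and 1175 (interval -0.34 to 0.94), Tox2 729 and 517 (interval -1.7 to 0.7) and Batf3 10.2 and 19.9 (interval -0.68 to 2.62). In CD8 cells Irf4 was 576 and 589, with an interval from -0.72 to 0.77. Bhlhe40 in CD8 cells was 9116, 9403 and 9972 in 3 treated libraries and 21890 in the fourth, JL019-1, and these overlapped the untreated range of 13070 to 21890 (log2 change -0.64, adjusted p 0.474).

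Set against syngeneic cells, treated cells differed in 6 of these genes in CD8 and 4 in CD4 cells. The comparison shares its treated libraries with the one above and its syngeneic libraries with the first, so the values are given side by side only. In CD8 cells 6 of the 8 were called higher, where 18.2% of all genes were called and 9.56% were higher: Prdm1 (log2 change 3.56), Bhlhe40 (3.15), Tox2 (4.79), Irf4 (2.11), Batf (1.99) and Tox (1.18, SE 0.338, adjusted p 0.0135). Tox reached 779, 1389, 1558 and 1605 in treated CD8 libraries, above the syngeneic range of 494 to 624, and its call was lost without CD8 syngeneic library JL027 (1.08, adjusted p 0.0611). Treg marker sums were 21250 to 35720 in treated and 3636 to 6829 in syngeneic CD8 libraries, with Foxp3 at 110 to 236 and 0 to 3.52. In CD4 libraries they were 32610 to 67580 and 4840 to 11980, with Foxp3 at 127 to 178 and 44.9 to 905. Between treated and syngeneic CD8 libraries the summed myeloid markers were 12040 to 32410 against 39120 to 62220, NK cell markers 1180 to 1480 against 5298 to 5780, B cell markers 1309 to 2062 against 3275 to 4051, plasma cell markers 5708 to 7257 against 2581 to 3391, and dendritic cell markers 1264 to 2672 against 696 to 1064. In CD4 cells the myeloid sums overlapped, and the NK cell sum was 369 to 409 against 515 to 1348. The part of these cells in the result was not tested. In CD4 cells 4 were called higher, where 16.7% of all genes were called and 8.23% were higher: Batf (2.54), Bhlhe40 (2.17), Prdm1 (1.54) and Tox2 (2.05, adjusted p 0.0256).

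Prdm1 in treated CD4 cells, at a mean of 801, thus lay between the syngeneic mean of 290 and the untreated allogeneic mean of 2051. Batf did not, since its treated mean of 16160 exceeded both the allogeneic mean of 8623 and the syngeneic mean of 2714. The Tox2 call in CD4 cells was lost without syngeneic library JL019-2 (1.12, adjusted p 0.17) or treated library JL019-2 (2.02, adjusted p 0.0589) or JL027-2 (1.96, adjusted p 0.0605), with the replicate label as a block (1.84, adjusted p 0.06) and with only the groups compared (adjusted p 0.164), where that of Prdm1 was lost too (adjusted p 0.0618). Without the syngeneic library Batf (2.34), Bhlhe40 (1.85) and Prdm1 (1.14, adjusted p 0.00272) were still called in CD4 cells, and Tox, not called, was -0.37 against 0.35 with it. Without it also, Nfatc1 was called lower in treated than in syngeneic CD4 cells, at -1.52 (adjusted p 0.025), against -0.82 (adjusted p 0.265) with it.

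Syngeneic cells held more Bhlhe40 and Batf than cells of day 0. Bhlhe40 read 269 and 275 in CD4 cells of day 0 and 87.9 and 98.3 in CD8 cells of day 0, below every post-transplant library. The syngeneic change was 3.27 (SE 0.434, adjusted p 3.16e-06) in CD4 and 3.81 (SE 0.434, adjusted p 9.16e-07) in CD8 cells on the log2 scale, and the allogeneic change was 6.51 and 7.6. In CD8 cells the median of all genes shifted by -0.103 in the syngeneic and by -0.128 in the allogeneic comparison with day 0. Batf rose by 0.96 (adjusted p 0.0339) in CD4 and 1.21 (adjusted p 0.00593) in CD8 syngeneic cells. These were the 2 of 8 genes called in each cell type, where the share of all genes called was 13% (9.9% higher) for CD4 and 24.2% (13% higher) for CD8. Without library JL019-2 the CD4 changes were 3.59 for Bhlhe40, 1.16 for Batf (adjusted p 0.0198) and 1.32 for Irf4, which was then called (adjusted p 0.0475). Summed myeloid markers moved with this comparison, being 1337 to 2127 at day 0 and 81430 to 3670000 in syngeneic CD4 libraries, and 6312 to 6652 and 39120 to 62220 in CD8 libraries. In CD8 cells the summed NK cell markers were 1314 to 1588 at day 0 and 5298 to 5780 in syngeneic libraries, plasma cell markers 20790 to 32090 and 2581 to 3391, B cell markers 1917 to 2673 and 3275 to 4051, and erythroid markers 38570 to 46680 and 2454 to 8695. Treg markers in CD8 cells were 2534 to 3133 and 3636 to 6829, and dendritic cell markers in CD4 cells 434 to 544 and 883 to 30090. The part of these cells in the result was not tested. The Batf calls rested on single libraries: the CD4 call was lost without any of 4 of its 5 libraries, the exception being JL019-2 (adjusted p 0.074 to 0.293), and the CD8 call without CD8 day 0 library JL019 (0.98, adjusted p 0.134). The CD4 call of Batf was also lost with median centring (0.8, adjusted p 0.143), the library mean as a covariate (0.52, adjusted p 0.23), the replicate label as a block (1.14, adjusted p 0.074) and only the groups compared (adjusted p 0.239), and the CD8 call with the covariate (0.62, adjusted p 0.13). With either prefix alone both were lost.

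Prdm1 was called higher than at day 0 in allogeneic cells of both types and in syngeneic cells of neither, though some alternatives called it in syngeneic CD8 cells. Prdm1 was 192 and 248 in CD4 cells of day 0 and 87.7 and 96.8 in CD8 cells, overlapping the syngeneic values given above in both (log2 changes 0.31 and 0.46, not called, the first 0.71 with adjusted p 0.175 without JL019-2). The syngeneic CD8 change of Prdm1 was called with quantile normalisation (0.956, adjusted p 0.0441) and with the library mean as a covariate (1.13, adjusted p 0.0104). Against day 0, allogeneic cells gave log2 changes for Prdm1 of 3.22 (SE 0.308) in CD4 and 4.94 (SE 0.308) in CD8 cells, and for Irf4 of 1.45 (adjusted p 0.0179) and 2.68 (adjusted p 3.85e-05). In syngeneic CD4 cells the log2 change of Irf4 was 0.67 (adjusted p 0.378) with JL019-2 and 1.32 (adjusted p 0.0475) without it, so no difference of the 2 settings was shown for it in CD4 cells. With the library mean as a covariate it was 1.36 (adjusted p 0.0378). In syngeneic CD8 cells Irf4 was 0.595 (adjusted p 0.356), and 1.51 (adjusted p 0.0247) with that covariate. In all, 5 of the 8 genes were called higher in both allogeneic cell types than at day 0 (Bhlhe40, Prdm1, Tox2, Irf4 and Batf), where 24% of all genes were called for CD4 (14.4% higher) and 30.4% for CD8 (16.3% higher). Marker sums moved with these comparisons too. Treg marker sums were 33930 to 42940 in allogeneic and 10320 to 11050 in day 0 CD4 libraries, and 28020 to 35790 and 2534 to 3133 in CD8 ones, where Foxp3 was 103 to 453 and 6.82 to 9.68. In CD4 cells Foxp3 was 337 to 579 against 978 and 1145 at day 0. Between allogeneic and day 0 CD4 libraries the myeloid sum was 5864 to 11620 against 1337 to 2127, the dendritic cell sum 1073 to 1416 against 434 to 544, the B cell sum 929 to 1369 against 535 to 718 and the plasma cell sum 6859 to 7919 against 10090 to 12180. In CD8 libraries the myeloid sum was 6934 to 11180 against 6312 to 6652, the dendritic cell sum 1443 to 3008 against 922 to 1008, the B cell sum 1134 to 1256 against 1917 to 2673, the plasma cell sum 6420 to 6987 against 20790 to 32090, and the erythroid sum 486 to 10720 against 38570 to 46680. The part of these cells in the result was not tested.

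Tox was lower in allogeneic CD4 cells than at day 0. It fell from 1869 and 2234 at day 0 to 737 to 1254 in allogeneic CD4 cells (log2 change -1.11, SE 0.383, adjusted p 0.0338). The call was lost without allogeneic library JL019-1 (-0.996, adjusted p 0.0853) or JL027-1 (-1.08, adjusted p 0.0637), or day 0 library JL019 (-0.986, adjusted p 0.23) or JL027 (-1.24, adjusted p 0.113), with the library mean as a covariate (-0.52, adjusted p 0.213) and with the replicate label as a block (-0.94, adjusted p 0.322). Syngeneic cells were also below day 0, without overlap. In CD4 cells the syngeneic change was -1.17 (adjusted p 0.0556), called with quantile normalisation (-1.39, adjusted p 0.0146) and median centring (-1.32, adjusted p 0.0208), and -0.447 (adjusted p 0.437) without JL019-2. In CD8 cells it was -1.0 (adjusted p 0.0683), called with only the groups compared (adjusted p 0.035), while the allogeneic CD8 change was -0.28 (adjusted p 0.613). Without either day 0 library the CD4 calls of Tox2 (adjusted p 0.0837 and 0.0935) and Irf4 (adjusted p 0.121 and 0.104) were also lost, as they were with the replicate label as a block (adjusted p 0.0585 and 0.519).

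Treg, which suppress other T cells, also expressed these genes. At day 0, Prdm1 read 677 and 797 in Treg against 192 and 248 in CD4 cells, Bhlhe40 1306 and 3120 against 269 and 275, and Batf 3206 and 3226 against 1219 and 1536. These 3 of 8 genes were called higher, where 3.89% of all genes were called (2.54% higher), with log2 changes of 1.75 (adjusted p 0.0032), 2.89 (adjusted p 0.000338) and 1.23 (adjusted p 0.0302). Tox was highest of all groups in day 0 Treg, at 3698 and 4129, without overlap with any other group, and the change of 0.94 against CD4 cells was not called (adjusted p 0.317). With 2 libraries a side 2 of these calls rested on single libraries, that of Bhlhe40 being kept without each of the 4: the call of Batf was lost without any of the 4 libraries (adjusted p 0.0939 to 0.272), and that of Prdm1 without CD4 library JL027 (1.56, adjusted p 0.069) or Treg library JL027 (1.63, adjusted p 0.0575). With only the groups compared Tox (adjusted p 0.007), Tox2 (1.81, adjusted p 0.00298) and Irf4 (1.61, adjusted p 0.0409) were also called higher in day 0 Treg. Summed plasma cell markers were 3553 to 4975 in these Treg and 10090 to 12180 in CD4 libraries, B cell markers 1096 to 1248 and 535 to 718, myeloid markers 2548 to 3394 and 1337 to 2127, erythroid markers 137 to 379 and 4406 to 4917, and NK cell markers 251 to 390 and 511 to 566, and their part in the result was not tested.

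Treg recovered from treated hosts had more Prdm1, Bhlhe40 and Batf than at day 0, and less Tox. Prdm1 was 2877, 3182 and 3876 (log2 change 2.16, SE 0.325, adjusted p 2.37e-05), Bhlhe40 11040, 13610 and 16140 (2.73, SE 0.434, adjusted p 4.97e-05) and Batf 9063, 9668 and 9722 (1.56, SE 0.302, adjusted p 0.000566). Tox fell to 1517, 1748 and 1813 (-1.21, SE 0.404, adjusted p 0.0455), a call lost without any 1 of the 5 libraries (adjusted p 0.0784 to 0.212) and with the covariate (-0.58, adjusted p 0.202). The Tox call was also lost with the replicate label as a block and with the recipient block. Tox2 fell from 377 and 512 at day 0 to 70.0, 139 and 146, and was not called (-1.96, adjusted p 0.0902). It was called with quantile normalisation (-2.08, adjusted p 0.0453) and with only the groups compared (adjusted p 0.00457). In the fit over all groups 4 of the 8 genes were called, where 13.3% of all genes were called. Summed dendritic cell markers were 449 to 758 at day 0 and 1616 to 2112 in treated hosts, and summed erythroid markers 137 to 379 and 1392 to 37550. Plasma cell markers were 3553 to 4975 and 5590 to 6546, B cell markers 1096 to 1248 and 584 to 892, and Treg markers 58440 to 59930 and 110300 to 160800. The part of these cells in the result was not tested.

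Compared with CD4 cells of treated hosts, Treg held more Prdm1 (log2 change 2.06, SE 0.272, adjusted p 4.79e-06), at 2877 to 3876 against 634 to 1031. Prdm1 in Treg also exceeded treated CD8 cells, by 1.12 (SE 0.272, adjusted p 0.00224). Tox2 went the other way, at 70.0, 139 and 146 in Treg against 267 to 702 in CD4 cells (-2.1, SE 0.63, adjusted p 0.0138), a call lost without Treg library JL019-2 (-1.77, adjusted p 0.0736). Batf was lower (-0.71, adjusted p 0.0354) and Nfatc1 higher (1.36, adjusted p 0.0409) in Treg than in treated CD4 cells, with overlapping libraries. The Batf call was lost without any of 6 of the 7 libraries (adjusted p 0.0588 to 0.138), the exception being CD4 library JL027-1, and the Nfatc1 call without any of 5 (adjusted p 0.0882 to 0.137), the exceptions being CD4 library JL027-1 and Treg library JL019-2. With the library mean as a covariate Batf was -0.37 (adjusted p 0.264), Nfatc1 0.43 (adjusted p 0.432) and Prdm1 against CD8 cells 0.64 (adjusted p 0.0508). The Nfatc1 call was also lost with the replicate label as a block. That of Batf was also lost with quantile normalisation and with only the groups compared. All genes shifted by a median of 0.141 against CD4 and 0.142 against CD8 cells here, and 30% and 36.2% of all genes were called, against 4 and 1 of the 8. Summed myeloid markers were 2189 to 7479 in Treg, below the treated CD4 range of 24440 to 89750 and the treated CD8 range of 12040 to 32410, and NK cell markers 229 to 408 in Treg and 1180 to 1480 in CD8 libraries, as B cell markers were 584 to 892 and 1309 to 2062. Their part in the result was not tested.

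Tox2 was higher in CD4 than in CD8 cells in 3 settings. At day 0 it read 122 and 127 in CD4 and 3.06 and 22.3 in CD8 cells, a log2 change, CD8 minus CD4, of -3.69 (SE 0.824, adjusted p 0.0076). The difference was -4.27 (SE 0.673, adjusted p 5.77e-05) in syngeneic and -2.62 (SE 0.583, adjusted p 0.00487) in allogeneic hosts, with no overlap of the libraries in any of the 3 settings. In Treg-treated hosts the libraries overlapped and the change was not called (-1.53, SE 0.583, adjusted p 0.104). CD8 lay below CD4 cells in each of the 4 recipients there, at 196 against 267, 61.9 against 517, 305 against 702 and 217 against 580. Paired by recipient the change was called (adjusted p 0.0346), as it was with the library mean as a covariate (-1.25, adjusted p 0.0316). Paired by recipient, the syngeneic difference was not called (adjusted p 0.123). The day 0 call was lost without CD4 library JL019 (-3.66, adjusted p 0.076) or JL027 (-3.71, adjusted p 0.0699) or CD8 library JL027 (-2.42, adjusted p 0.303). Marker sums of other cells also differed between CD8 and CD4 libraries. At day 0 the erythroid sum was 38570 to 46680 in CD8 and 4406 to 4917 in CD4 cells, the plasma cell sum 20790 to 32090 and 10090 to 12180, the myeloid sum 6312 to 6652 and 1337 to 2127, the B cell sum 1917 to 2673 and 535 to 718, the dendritic cell sum 922 to 1008 and 434 to 544, the Treg sum 2534 to 3133 and 10320 to 11050, and the NK cell sum 1314 to 1588 and 511 to 566. In syngeneic hosts the B cell sum was 3275 to 4051 in CD8 and 254 to 1328 in CD4 cells, the NK cell sum 5298 to 5780 and 515 to 1348, the plasma cell sum 2581 to 3391 and 3484 to 13740, and the myeloid sum 39120 to 62220 and 81430 to 3670000. In allogeneic hosts the dendritic cell sum was 1443 to 3008 and 1073 to 1416 and the NK cell sum 1502 to 1887 and 450 to 572. In treated hosts the B cell sum was 1309 to 2062 and 578 to 1124 and the NK cell sum 1180 to 1480 and 369 to 409. The part of these cells in the differences between CD8 and CD4 cells, those of Prdm1 and Irf4 included, was not tested.

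Prdm1 was lower in CD8 than in CD4 cells of syngeneic hosts (-1.08, SE 0.29, adjusted p 0.0136), and higher in CD8 cells of treated hosts, at 1239 to 2285 against 634 to 1031 (0.94, SE 0.251, adjusted p 0.0153). At day 0 Prdm1 was also lower in CD8 cells, at 87.7 and 96.8 against 192 and 248, and not called (-1.23, adjusted p 0.0532). There it was called with a minimum mean of 10 (adjusted p 0.0489), quantile normalisation (-1.6, adjusted p 0.00797) and median centring (-1.38, adjusted p 0.0104). It was also called with the library mean as a covariate (adjusted p 0.00736), the recipient block (adjusted p 0.0305) and only the groups compared (adjusted p 0.018). In allogeneic hosts all CD8 libraries lay above the CD4 ones, and the change of 0.49 was not called (adjusted p 0.329). These CD4 and CD8 libraries pair by recipient number, and Prdm1 was higher in CD8 cells in each of the 4 pairs. With the recipient as a fixed replicate block in the allogeneic groups alone, the same change of Prdm1 was called (adjusted p 0.0018), as were lower Bhlhe40 (-0.45, adjusted p 0.00255) and Nfatc1 (-0.61, adjusted p 0.0143) in CD8 cells beside Tox2. That fit called 4 of the 8 genes and 25.8% of all genes. The same fit in treated hosts called Prdm1 (0.94, adjusted p 0.0387) and Tox2, 2 of the 8, and 7.69% of all genes. In syngeneic hosts, with 3 pairs, limma called 0 of the 8 and 0 of all genes, and 2 of the 8 (Tox2 and Bhlhe40) and 13.4% of all genes had an unadjusted p under 0.05. With a random recipient term over all groups the adjusted p of Prdm1 in allogeneic hosts was 0.254. Irf4 was also lower in CD8 cells of syngeneic hosts (-1.34, SE 0.42, adjusted p 0.0356). The syngeneic calls of Prdm1 and Irf4 were lost without CD4 library JL019-1 (adjusted p 0.0646 and 0.166) or JL027 (adjusted p 0.0785 and 0.14) or CD8 library JL027 (adjusted p 0.13 and 0.326), and the treated Prdm1 call without CD4 library JL027-2 (0.84, adjusted p 0.068) or CD8 library JL019-1 (0.74, adjusted p 0.0844). With quantile normalisation they were lost as well, at -0.68 (adjusted p 0.168) and -0.96 (adjusted p 0.196) for Prdm1 and Irf4 in syngeneic and 0.73 (adjusted p 0.0813) for Prdm1 in treated hosts. Of the 8 genes, the CD8 against CD4 tests called 1 at day 0, 3 in syngeneic, 1 in allogeneic and 1 in treated hosts, where 3.32%, 12%, 6.15% and 9.61% of all genes were called. Without CD4 syngeneic library JL019-2 the syngeneic count was 5, since Tox (-1.4, adjusted p 0.000364) and Bhlhe40 (-1.32, adjusted p 0.0416) were then called lower in CD8 cells, beside Tox2 (-5.2), Irf4 (-1.99) and Prdm1 (-1.49).

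Across the 10 groups the order of levels differed from gene to gene. Prdm1 was highest in Treg of treated hosts (mean 3312 ± 512, SD, n = 3), then in allogeneic CD8 (2880 ± 375, n = 4) and CD4 cells (2051 ± 247, n = 4). The first 2 groups overlapped, and allogeneic CD8 and CD4 cells did not. Bhlhe40 was highest in allogeneic CD4 cells (25050 ± 3897, n = 4), and the 5 groups from allogeneic or treated hosts overlapped in a chain, ending with treated CD4 cells (12220 ± 3639, n = 4), which did not overlap syngeneic CD4 cells (2881 ± 1579, n = 3).

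Batf was highest in treated CD4 cells (16160 ± 5140, n = 4), and the 5 groups from allogeneic or treated hosts again overlapped in a chain down to allogeneic CD8 cells (7210 ± 379, n = 4), above day 0 Treg (3216 ± 13.6, n = 2). Irf4 was highest in both Treg groups (743 ± 129 with n = 3 in treated hosts and 722 ± 413 with n = 2 at day 0), and each neighbour in its order overlapped the next. Nfatc1 had the smallest ratio of highest to lowest group mean of the 8 genes, from 933 ± 456 (n = 4) in treated CD4 cells to 3514 ± 870 (n = 4) in allogeneic CD4 cells, and all neighbours overlapped. Tox was lowest in syngeneic CD8 cells (570 ± 67.6, n = 3), which did not overlap the next group.

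As a description over the 10 group means of log2 values, which share the same libraries, Batf and Bhlhe40 ran together most closely (Pearson's r 0.935), followed by Irf4 and Prdm1 (0.911) and Prdm1 and Bhlhe40 (0.888). Irf4 also ran with Bhlhe40 (0.858), Tox2 (0.841) and Batf (0.806). Nfatc1, Batf3 and Tox stood outside this group, with r against the others between -0.46 and 0.167 for Nfatc1, between -0.46 and 0.384 for Batf3 and between -0.396 and 0.472 for Tox. Among 9808 genes with a mean value of at least 100, the 3 most like Prdm1 were Grb7 (0.989), Frmd4b (0.976) and Alcam (0.968). Those most like Bhlhe40 were Lsr (0.986), Fbxw17 (0.985) and Pqlc3 (0.979), and for Batf Mthfsl (0.979), S100a10 (0.979) and Rilpl2 (0.975). For Irf4 they were Mdfic (0.984), Niban1 (0.983) and Ttc39c (0.98), and for Tox2 Angptl2 (0.979), Cd200 (0.961) and Nrp1 (0.953). Nfatc1 was most like Ncstn (0.965), Pom121 (0.965) and Ell (0.963), Tox most like Senp6 (0.955), Mllt3 (0.934) and Ccnk (0.926), and Batf3 most like Serpinb1a (0.912), Card19 (0.905) and Ethe1 (0.896). Over the 31 libraries r was lower, at 0.655 to 0.713 for Tox, 0.587 to 0.776 for Batf3 and 0.851 to 0.967 for the other genes. These correlations were not computed without CD4 syngeneic library JL019-2, where Batf3 read 275.

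Genes around these factors were followed in 6 lists. Of 13 inhibitory receptors and ectoenzymes, the surface proteins that mark exhausted T cells, 9 were called higher in allogeneic than in syngeneic CD4 cells and 8 in CD8 cells, with 0 and 1 lower. The list's median log2 change was 2.02 and 2.49. Pdcd1, which encodes PD-1, rose by 2.88 (adjusted p 1.13e-07) in CD4 cells and 7.19 (adjusted p 1.82e-15) in CD8 cells, and Havcr2, which encodes TIM-3, by 3.12 and 7.23. Without CD4 library JL019-2, 8 of the 13 were called higher in CD4 cells, and Pdcd1 and Havcr2 changed by 2.3 and 2.82. These counts stand beside 6.69% of all genes called higher in CD4 and 10.4% in CD8 cells.

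Of 12 stem and memory factors none was called higher in allogeneic cells. In CD4 cells 5 were called lower, and 7 without JL019-2, and in CD8 cells 6 were. Of all genes 7.91% were called lower in CD4 and 10.7% in CD8 cells. Id3, an inhibitor of E proteins that marks memory precursors, fell by 2.02 in CD4 cells on the log2 scale and fell by 5.19 in CD8 cells. Bach2, which competes with AP-1 proteins for DNA, fell by 2.51 (adjusted p 0.000247) in CD4 cells and fell by 2.27 (adjusted p 0.000487) in CD8 cells, and Tcf7, the factor of stem-like T cells, fell by 3.39 in CD8 cells (adjusted p 8.49e-06). Of 16 other exhaustion and effector factors 7 were called higher in each cell type, with 1 lower in CD4 and 2 in CD8 cells. Of all genes 6.69% were called higher in CD4 and 10.4% in CD8 cells. Without JL019-2, 6 of these factors were called higher and 1 lower in CD4 cells. Maf was among the factors higher in both cell types (2.53 and 2.59) and Eomes fell by 2.17 in CD8 cells. Without JL019-2 the CD4 changes were 2.03 for Maf, -2.04 for Id3 and -3.06 for Bach2, all called.

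Of 12 genes of the JUN, FOS, ATF, MAF and BACH families, which belong to AP-1 or bind related sites, none was called higher, 1 was lower in CD4 (Bach2) and 2 in CD8 cells (Bach2 and Jun, which fell by 1.15 with adjusted p 0.0489). Of 18 relatives of the 8 genes none was called in CD4 cells, and in CD8 cells 2 were higher and 3 lower, led by Irf5 at 3.11 (adjusted p 5.11e-07) and Irf1 at -0.87. Of 19 genes of calcineurin and NFAT signalling, 4 were higher in CD4 cells (2 without JL019-2), while in CD8 cells 1 was higher and 2 were lower. With 14.6% (CD4) and 21.1% (CD8) of all genes called, these counts are not a result about the AP-1, relative or calcineurin lists. Itpr1, the calcium channel of the endoplasmic reticulum, was higher in both (1.63, or 1.14 without JL019-2, and 3.16).

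**Figure D4:**
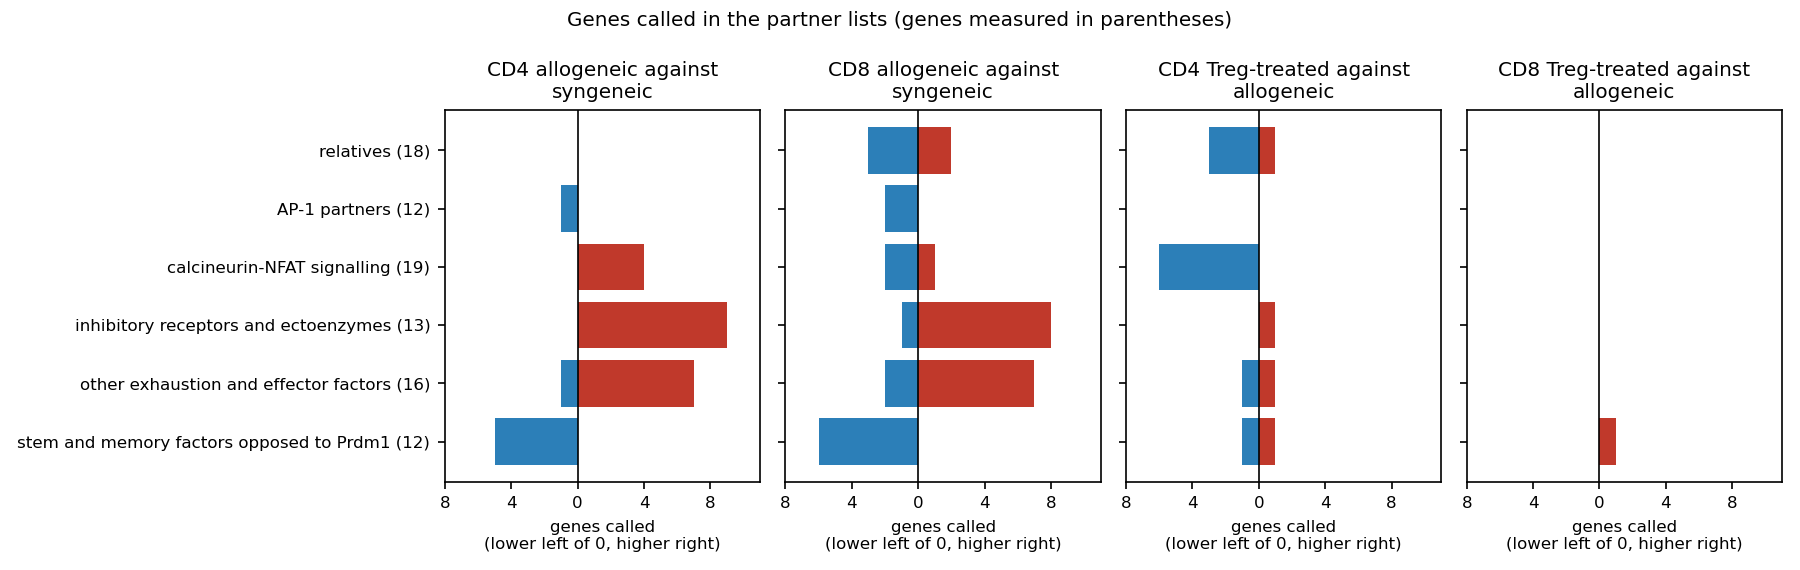
Number of genes called higher (right of 0) and lower (left of 0) in 6 lists, with the number measured in parentheses, for 4 comparisons. Inhibitory receptors have 9 and 8 genes called higher in the allogeneic comparisons, and calcineurin and NFAT signalling 6 called lower in Treg-treated CD4 cells.

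With added Treg, 6 of the 19 calcineurin and NFAT signalling genes were called lower in CD4 cells, 0 were higher and 13 were not called, where 11.5% of all genes were lower, with a median log2 change of -0.595 against -0.00181 over all genes. Plcg1, the phospholipase that releases calcium, fell by 2.62 (SE 0.771, adjusted p 0.0214). Dyrk1a, a kinase that opposes the entry of NFAT into the nucleus, fell by 1.39 (SE 0.403, adjusted p 0.0196). Stim1, the calcium sensor, fell by 1.5 (SE 0.423, adjusted p 0.0179), and Ppp3ca, a calcineurin catalytic subunit, fell by 0.73 (SE 0.201, adjusted p 0.0172). The relatives Nfatc2 and Nfatc3 were called as well, at -1.58 (adjusted p 0.0242) and -1.91 (adjusted p 0.0207). The spread in treated cells was wide: Plcg1 was 882 ± 860 (SD, n = 4) against 4266 ± 1300 (n = 4). The count rested on single libraries. Without treated library JL019-1, JL019-2 or JL027-2, or untreated library JL019-1 or JL019-2, 0 of the 19 were called by limma, where 4.01%, 2.81%, 4.46%, 8.64% and 6.8% of all genes were called. Without untreated JL027-1 or JL027-2, 5 were lower (20.8% and 13.6% of all genes called), and without treated JL027-1, 9 were lower and 2 higher (33.6%). The list's median change was -0.728 to -0.545 over these 8 fits. With the library mean as a covariate 0 of the 19 were called and the median was -0.334.

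Of the 13 inhibitory receptors 1 was called in treated CD4 cells, Pdcd1, and it was higher (0.9, SE 0.281, adjusted p 0.0258), where 10.7% of all genes were called higher and 11.5% lower. No gene of that list was called without untreated library JL019-1, JL019-2 or JL027-1, or treated library JL019-1, JL019-2 or JL027-2. Of the relatives 1 was higher and 3 were lower, of the other exhaustion factors and of the stem and memory factors 1 was higher and 1 lower in each, and none of the AP-1 genes was called. Beside 22.2% of all genes called, these counts are not a result about the lists. Id3 was higher in treated cells of both types, at 1912 ± 732 (SD, n = 4) against 496 ± 89.0 (n = 4) in CD4 cells (log2 change 1.89, SE 0.279, adjusted p 0.000681) and 477 ± 204 (n = 4) against 101 ± 8.58 (n = 4) in CD8 cells (2.11, SE 0.279, adjusted p 0.000361). It was the single gene of the 6 lists called in CD8 cells. The counts without a library and with the covariate were added after the data had been seen.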

How the data were processed

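Bulk RNA was measured in 31 libraries of mouse T cells in 10 groups. RNA was turned into full-length cDNA and tagmented libraries, per the labels' protocols. FastQC 0.11.7, kallisto, DESeq2 and the builds GRCm38 and mm10 are named, without role or order, in the submitters' processing notes. The authors deposited counts normalised between libraries (a signal without whole reads, so RNA depth is unknown and no count model was used) for 16741 genes, 0 of which fell below the filter of a mean of 1. A pseudocount of 1 was added and log2 values were fitted with limma 3.58.1 in R 4.3.3: 1 mean per group over all 31 libraries, moderated variances with trend and robust settings, 20 contrasts, Benjamini-Hochberg over all genes, threshold 0.05, 95% intervals. Tables and figures used Python 3.11.15, pandas 2.3.3 and matplotlib 3.10.9. The fit was tested on simulated data. Folds compare group means of normalised counts, while log2 changes are on the scale with the pseudocount, which understates the change of low genes. Named from the lists were up to 4 called genes with the lowest p. The most similar genes leave out predicted genes, receptor segments, mitochondrial and ribosomal protein genes. Tox3 and Cd244, listed, were not matched in the table. The 8 genes and the lists were chosen with earlier results of these data known. The titles give the CD4 and CD8 libraries of a host the same number, so these pair by label. The syngeneic JL027 titles carry no number, and these 2 libraries were paired by prefix. Deviations of paired libraries from group means correlated by 0.233 to 0.735 in allogeneic, -0.248 to 0.724 in treated and -0.397 to 0.301 in syngeneic hosts. The CD4 library best matched the CD8 library of its own label in 4 of 4 allogeneic, 2 of 4 treated and 0 of 3 syngeneic pairs. Fits paired by recipient within each setting were added after the data had been seen. Alternatives were other scalings, filters and pseudocounts, covariates, replicate blocks, single prefixes and leaving out each library. T cell receptor tables and 1 pooled receptor sample were not used here.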

Additional observations from a re-analysis of the deposited data

Results flagged for a closer look

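In groups of 4 libraries, a value was marked where its gap to the nearest other library exceeded Dixon's 95% critical share of the range of the group. Of 32 groups checked 3 met this, and chance gives about 1 in 20. Tox2 read 1192 in allogeneic CD4 library JL027-2, against 549 to 598 in the other 3. Nfatc1 read 1615 in treated CD4 library JL027-1, against 671 to 733. Bhlhe40 read 21890 in treated CD8 library JL019-1, against 9116 to 9972. Of 16 tests of a difference between CD8 and CD4 cells, 1 passed: the allogeneic against syngeneic change of Prdm1 was larger in CD8 cells by 1.57 on the log2 scale (adjusted p 0.0144). That call was lost with quantile normalisation (1.08, adjusted p 0.14), with only the groups compared (adjusted p 0.0663), with either prefix alone, and without CD8 syngeneic library JL027 (1.27, adjusted p 0.0651).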

How the results depend on the processing

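The 57 member calls kept their direction under every alternative run. All 57 stayed called with a pseudocount of 0.1, no filter, a minimum mean of 10 or the prefix as a replicate block. Calls lost numbered 1 with the recipient block, 3 with median centring, 5 with quantile normalisation, 7 with the replicate label as a block, 9 with the library mean as a covariate, 9 with only the groups compared, 30 with JL019 alone, 27 with JL027 alone, and 62 of 370 when 1 library was left out. Numbers of the 8 genes called that moved by more than 1.5 times follow.

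With a minimum mean of 10, CD8 against CD4 at day 0 called 2 genes. Quantile normalisation called 2 for Treg against treated CD8, 3 for CD8 against CD4 at day 0, 1 in syngeneic hosts and 0 in the CD8 minus CD4 difference of allogeneic against syngeneic. Median centring called 3 for CD8 against CD4 at day 0. The covariate called 2 for CD4 treated against allogeneic, 4 for CD8 syngeneic against day 0, 2 for Treg against treated CD4, and for CD8 against CD4 3 at day 0, 2 in allogeneic and 4 in treated hosts. Only the groups compared called 2 for CD4 treated against syngeneic, 1 for CD4 syngeneic against day 0, 6 for Treg against CD4 at day 0, 2 for Treg against treated CD8, 5 for CD8 against CD4 at day 0, 1 in syngeneic and 0 in treated hosts, and 0 in the difference. JL019 alone, with 1 or 2 libraries a group, called 0 for CD4 treated against allogeneic, 1 for CD4 and 1 for CD8 syngeneic against day 0, 3 for CD4 allogeneic against day 0, 2 for Treg treated against day 0, 1 for Treg against treated CD4, 0 for Treg against CD4 at day 0 and against treated CD8, 1 for CD8 against CD4 in syngeneic hosts and 0 in the other settings and the difference. JL027 alone called 2 for CD4 allogeneic and 2 for CD4 treated against syngeneic, 0 for CD4 treated against allogeneic, 1 for CD4 and 1 for CD8 syngeneic against day 0, 1 for Treg treated against day 0, and 0 for Treg against treated CD4, Treg against treated CD8, and CD8 against CD4 in allogeneic and treated hosts.

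With the replicate label as a replicate block, CD4 syngeneic against day 0 called 1, CD4 allogeneic against day 0 3, and CD8 against CD4 at day 0 2. The recipient block (duplicate correlation 0.145) called 3 in the last. The recipient as a fixed replicate block, within 1 setting and added after the data had been seen, called 4 for CD8 against CD4 in allogeneic, 2 in treated and 0 in syngeneic hosts.

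Leaving out 1 library gave 2 to 4 called genes for CD4 treated against allogeneic, 1 to 3 for CD4 and 1 to 2 for CD8 syngeneic against day 0, 3 to 6 for CD4 allogeneic against day 0, 1 to 2 for Treg against CD4 at day 0, 2 to 4 for Treg against treated CD4, 0 to 1, 1 to 5 and 0 to 3 for CD8 against CD4 at day 0, in syngeneic and in treated hosts, and 0 to 3 for the difference. An arm left with 1 library was assumed to vary like the other groups.

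In the allogeneic against syngeneic and treated against allogeneic comparisons, values that were not called changed sign as follows. Irf4, CD4 treated against allogeneic (-0.13), was 0.13 with quantile normalisation, 0.0692 with median centring, 0.34 with the covariate, 0.052 with JL027 alone and -0.247 to 0.0046 with 1 library left out, and in CD8 cells (0.02) it was -0.0475 with JL027 alone and -0.0689 to 0.0909. Batf3, CD8 treated against allogeneic (-0.01), was 0.0089, 0.0773 and 0.373 with quantile normalisation, median centring and JL019 alone, and -0.298 to 0.296 with 1 library left out. Nfatc1 in the same comparison (-0.32) was 0.29 with the covariate, 0.27 with JL027 alone and -0.697 to 0.14, and Tox2 (0.59) was -0.0013 with JL019 alone. Tox2, CD4 treated against allogeneic (-0.5), was 0.45 with the covariate. Tox, CD4 allogeneic against syngeneic (0.05), was -0.0593 with the covariate, -0.501 with JL027 alone and -0.67 to 0.42. Batf3 was -0.18 with JL019 alone in CD8 cells (1.33), and in CD4 cells (-1.3) 1.21 with JL027 alone and -2.44 to 0.43. In the other comparisons 41 of 84 changes that were not called took the other sign under at least 1 alternative, and 1 of them was then called: Nfatc1, CD8 syngeneic against day 0 (-0.28), was 1.34 (adjusted p 0.038) with the covariate. The cause of these changes was not tested.

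Over all genes, the count for CD4 treated against allogeneic (3710) ran from 5 with JL019 alone to 5633 without treated CD4 library JL027-1, and was 470 without treated CD4 library JL019-2. The counts for CD8 treated against allogeneic (11), CD4 and CD8 allogeneic against syngeneic (2445 and 3524) ran from 0 to 63, 381 to 3444 and 1024 to 4752. RNA depth is unknown, so the precision of low values such as Batf3 cannot be stated.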
